A study of Mus musculus with 8 samples.

Results

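Transcripts of 7 genes of insulin and insulin-like growth factor (IGF) signalling, Insr, Akt1, Akt2, Pik3r1, Pik3ca, Igf1 and Igfbp4, were followed in the subcutaneous white fat of calorie-restricted and freely fed mice. They were taken by gene symbol from a table of 50952 genes, 1 row each, after earlier results of the diet comparison in these same libraries were known. Their differences between the diets are therefore described without a test. The mice were wild-type C57BL/6J. The first group ate ad libitum (AL) and the second had 6 months of calorie restriction (CR) that began at 3 months of age, and tissue was taken at 9 months. Of 8 labelled mice, 4 per diet, the table analysed here holds 3 AL libraries (AL2, AL3 and AL4) and 4 CR libraries (CR1 to CR4). Means are given with the SD over these 3 AL and 4 CR libraries throughout, and changes with a standard error. Whole tissue was used, so that fewer cells of a type and less RNA per cell cannot be told apart in any value below.

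Insulin and IGF-1 act through related receptor tyrosine kinases at the cell surface. The activated receptors phosphorylate adaptor proteins, which recruit phosphoinositide 3-kinase (PI3-kinase), an enzyme built from a regulatory and a catalytic subunit. Its lipid product brings AKT kinases to the membrane, and in fat cells AKT activity moves glucose transporters to the surface and holds back lipolysis. IGF-binding proteins bind IGF-1 outside the cell and control how much of it reaches the receptor.

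Values are in TPM, a length-corrected transcript abundance, as the authors deposited them. Genes that the authors' deposited table gives a false discovery rate (FDR) below 0.05 were not analysed here, and the rows at hand held 49.0% to 53.1% of an AL library's TPM and 42.9% to 45.01% of a CR library's. Over the 9883 genes tested the median log2 change was -0.20 on the deposited scale and -0.01 after median-ratio scaling of the libraries. That second scale is called rescaled here, and a change on it is relative to the typical gene of these rows. The scaling, the adjusted p-values and all shares of tested genes are computed without the genes left out above. Recovered reads in these rows ranged from 4147004 in CR4 to 8896615 in AL4, and the fewest behind any value of the 7 genes were 594, for Pik3ca in CR3 and CR4.

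The starts of the genes whose transcripts were most alike and those of the PI3-kinase subunits are shown first, because these pairs carry the contrast described below. Each is the 250 bases before the most upstream RefSeq start in build GRCm38.p6, read 5′ to 3′ on the gene's strand. Capitals mark the FOXO core TGTTTAC and the GC box GGGCGG on either strand. The Akt1 window is chr12:112674885-112675134 (minus strand), that of Akt2 is chr7:27591302-27591551 (plus strand), that of Pik3r1 is chr13:101768218-101768467 (minus strand) and that of Pik3ca is chr3:32396815-32397064 (plus strand).
Akt1: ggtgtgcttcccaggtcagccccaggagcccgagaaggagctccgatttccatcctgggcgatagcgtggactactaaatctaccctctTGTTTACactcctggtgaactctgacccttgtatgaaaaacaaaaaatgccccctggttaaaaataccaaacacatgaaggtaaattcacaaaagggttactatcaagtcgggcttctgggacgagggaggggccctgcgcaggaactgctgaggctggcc
Akt2: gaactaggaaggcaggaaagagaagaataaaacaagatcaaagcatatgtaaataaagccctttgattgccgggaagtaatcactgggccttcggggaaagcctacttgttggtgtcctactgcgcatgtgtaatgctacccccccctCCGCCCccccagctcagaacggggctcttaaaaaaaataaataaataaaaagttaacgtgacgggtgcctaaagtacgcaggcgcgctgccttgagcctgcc
Pik3r1: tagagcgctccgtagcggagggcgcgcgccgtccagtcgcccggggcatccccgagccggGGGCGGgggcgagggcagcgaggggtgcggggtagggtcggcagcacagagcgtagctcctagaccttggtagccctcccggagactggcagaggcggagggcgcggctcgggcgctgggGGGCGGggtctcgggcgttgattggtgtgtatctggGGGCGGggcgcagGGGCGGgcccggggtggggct
Pik3ca: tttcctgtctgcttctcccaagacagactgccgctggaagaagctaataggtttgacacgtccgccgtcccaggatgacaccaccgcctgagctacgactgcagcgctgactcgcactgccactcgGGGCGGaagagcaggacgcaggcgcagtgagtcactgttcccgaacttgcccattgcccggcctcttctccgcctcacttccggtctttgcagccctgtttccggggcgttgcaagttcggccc
The FOXO core stood in the Akt1 window alone of these 4, 1 time, and in 3.17% of 32851 such windows over all genes. The GC box stood 4 times before Pik3r1 and 1 time each before Akt2 and Pik3ca, and 32.7% of all windows held it. The Pik3r1 window was 76.4% G and C, against 61.6% for Pik3ca, 52.0% for Akt1, 48.8% for Akt2 and a median of 52.4% over all windows. The second Akt1 start lies downstream, and its window held 4 GC boxes, 0 FOXO cores and 78.4% G and C. The second Pik3r1 start lies downstream too, and its window held 0 GC boxes and 42.4% G and C, so that the GC-rich letters belong to 1 of its 2 starts. The other 3 Akt2 windows held 0 GC boxes. These matches describe letters, and the table gives 1 value per gene with no use of single starts.

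On the deposited scale 4 of the 7 genes were lower in CR (Igf1, Igfbp4, Pik3r1 and Pik3ca) and 3 were higher (Insr, Akt1 and Akt2). Over all tested genes the change was above 0 for 26.2% on that scale and for 48.6% after rescaling. The ligand, its binding protein and both PI3-kinase subunits thus stood on the opposite side from the receptor and the kinases. The ranges of the diets lay apart for 5 genes on that scale, 4 lower and 1 higher. Over all tested genes 33.2% lay apart, 31.1% lower and 2.17% higher. After rescaling they lay apart for 6, 3 lower and 3 higher, with 26.6% of all tested genes apart, 12.7% lower and 13.9% higher. The genes were chosen on this contrast, so these shares are printed beside the counts and nothing is read from them.

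**Figure D1:**
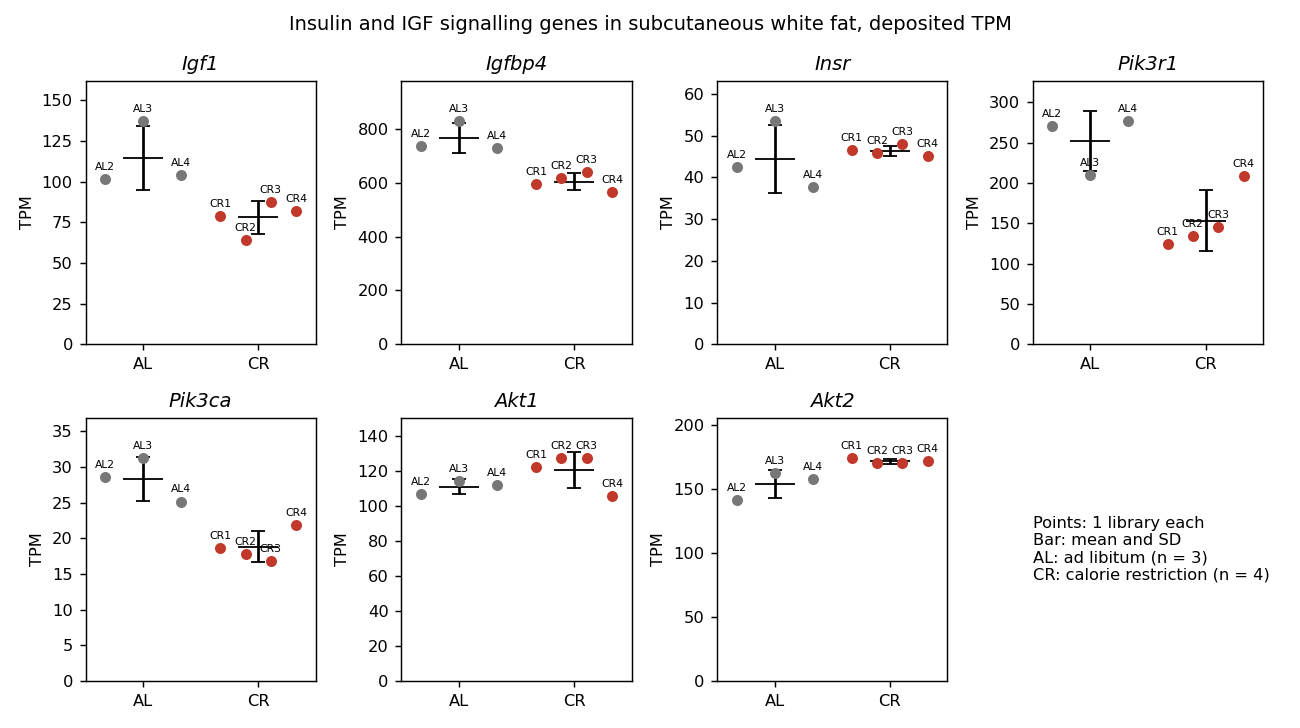
Deposited TPM of the 7 genes in each library, by diet (AL, n = 3; CR, n = 4), with the mean and SD as bars and axes that start at 0. Igf1, Igfbp4, Pik3r1 and Pik3ca lie lower in every CR library than in any AL library, Akt2 lies higher in every CR library, and Insr and Akt1 overlap.

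Igf1 (chromosome 10) encodes the growth factor, which fat makes locally as well as receiving it from the liver. Its values were 102 TPM in AL2, 137 in AL3 and 104 in AL4, and at 79.1 in CR1, 63.9 in CR2, 87.4 in CR3 and 81.9 in CR4. Every CR library lay under every AL library, and the highest value, in AL3, stood apart from the other AL libraries. The group means were 115 ± 19.7 TPM (AL) and 78.1 ± 10.1 TPM (CR), a log2 change of -0.54 ± 0.13 on the deposited scale and -0.33 ± 0.12 after rescaling. Without AL3 these changes were -0.41 and -0.23. In GENCODE M21 the antisense gene Igf1os lies across Igf1 on the other strand, with no shared exonic base.

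Igfbp4 (chromosome 11) encodes IGF-binding protein 4, which binds IGFs and keeps them from the receptor until a protease cleaves it. It was the most abundant of the 7 and ranked 57 among the 9883 tested genes by mean TPM. It stood at 739, 830 and 731 TPM in AL2, AL3 and AL4 and at 595, 618, 642 and 565 TPM in CR1 to CR4. All CR values were below all AL values. Means were 767 ± 55.2 TPM under AL and 605 ± 32.6 TPM under CR. Its log2 change was -0.34 ± 0.07 on the deposited scale but -0.12 ± 0.06 after rescaling, so that most of its deposited difference was shared with the typical gene. Beside Igf1, Igfbp4 transcripts were 6.05 to 7.25 times as abundant in AL and 6.90 to 9.67 times in CR, and these ranges overlapped.

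Insr (chromosome 8) encodes the insulin receptor. The AL values were 42.4 TPM in AL2, 53.5 in AL3 and 37.6 in AL4, and CR1 to CR4 stood at 46.5, 45.9, 48.0 and 45.1 TPM. The CR libraries fell inside the AL range and were close to each other, with a coefficient of variation of 2.62% in CR against 18.3% in AL. Means were 44.5 ± 8.14 TPM and 46.4 ± 1.22 TPM, a log2 change of 0.07 ± 0.11 on the deposited scale. After rescaling the AL libraries stood at 40.0, 46.0 and 35.2 and the CR libraries at 47.3 to 50.3, apart from each other, with a change of 0.29 ± 0.09. The direction on the deposited scale rested on single AL libraries, since the change was 0.21 without AL3 and -0.04 without AL4, while after rescaling it was 0.38 and 0.19.

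Pik3r1 (chromosome 13) encodes the regulatory subunits of PI3-kinase, p85α and its shorter forms, which hold and stabilise the catalytic subunit. Its level was 271 TPM in AL2, 209 in AL3 and 277 in AL4, and at 125 in CR1, 135 in CR2, 145 in CR3 and 208 in CR4. The lowest AL library and the highest CR library nearly met, and after rescaling they crossed, with AL3 at 180 and CR4 at 218. Means were 252 ± 37.3 TPM under AL and 153 ± 37.6 TPM under CR, and the log2 change of -0.74 ± 0.18 was the largest in size of the 7 genes on the deposited scale (-0.52 ± 0.19 after rescaling). Of tested genes 3.40% had a lower deposited change and 4.55% a lower rescaled change. Such shares come from the contrast that chose the genes and are a description. Without CR4 the changes were -0.89 and -0.67, and without AL3 they were -0.86 and -0.69.

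Pik3ca (chromosome 3) encodes the catalytic subunit p110α, the PI3-kinase isoform that carries much of insulin's signal. It was the least abundant of the 7, at 28.6, 31.3 and 25.1 TPM in AL2, AL3 and AL4 and at 18.7, 17.8, 16.9 and 21.9 TPM in CR1 to CR4. All CR values lay under all AL values on both scales. Means were 28.3 ± 3.07 TPM and 18.8 ± 2.17 TPM, a log2 change of -0.57 ± 0.11 on the deposited scale and -0.36 ± 0.10 after rescaling. As for Pik3r1, CR4 held the highest CR value.

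Akt1 (chromosome 12) encodes the AKT kinase that is broadly tied to cell growth. It stood at 107, 115 and 112 TPM in AL2, AL3 and AL4 and at 122, 128, 128 and 106 TPM in CR1 to CR4. CR1, CR2 and CR3 lay above the AL libraries and CR4 lay below them all. Means were 111 ± 4.07 TPM and 121 ± 10.3 TPM, with a log2 change of 0.12 ± 0.08 on the deposited scale and 0.33 ± 0.08 after rescaling, where CR4 stood above AL too.

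Akt2 (chromosome 7) encodes the AKT kinase most closely tied to insulin-stimulated glucose uptake in fat and muscle. It stood at 141, 163 and 158 TPM in AL2, AL3 and AL4 and at 175, 171, 171 and 172 TPM in CR1 to CR4. Every CR library lay above every AL library, and the CR libraries differed by a coefficient of variation of 1.07%. Means were 154 ± 11.2 TPM and 172 ± 1.84 TPM. The log2 change was 0.16 ± 0.06 on the deposited scale and 0.38 ± 0.06 after rescaling. Of tested genes 88.8% had a lower deposited change and 90.5% a lower rescaled change.

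**Figure D2:**
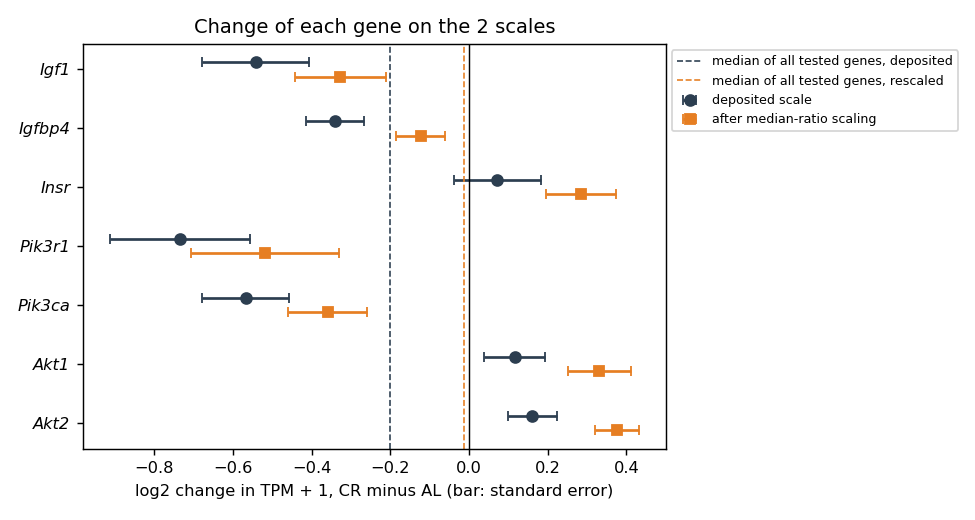
Log2 change in TPM + 1, CR minus AL, with its standard error, for each of the 7 genes on the deposited and the rescaled scale, with dashed lines at the median of all tested genes (-0.20 and -0.01). Insr, Akt1 and Akt2 lie to the right of 0 and the other 4 to the left on both scales.

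In AL the order by level was Igfbp4, Pik3r1, Akt2, Igf1, Akt1, Insr and Pik3ca. Igf1 and Akt1 overlapped there, and the other neighbours did not. In CR the order was Igfbp4, Akt2, Pik3r1, Akt1, Igf1, Insr and Pik3ca, so that Pik3r1 and Akt2 changed places, as did Igf1 and Akt1. The Pik3r1 range in CR overlapped those of both of its neighbours, so its place among them was not settled by these samples.

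Ratios within a library do not depend on the scale. Akt2 to Pik3r1 was 0.521, 0.776 and 0.572 in AL2, AL3 and AL4 and 1.40, 1.27, 1.174 and 0.827 in CR1 to CR4. It was higher in every CR library than in any AL library, with CR4 nearest to AL. Means were 0.623 ± 0.135 and 1.167 ± 0.246. The regulatory to catalytic ratio, Pik3r1 to Pik3ca, ran from 6.70 to 11.004 in AL and from 6.66 to 9.52 in CR. These ranges overlapped, so a shift in subunit transcript balance was not seen beyond the spread between libraries. Akt2 to Akt1 likewise overlapped, at 1.32 to 1.42 in AL and 1.34 to 1.62 in CR. Insr to Pik3r1 overlapped too, at 0.136 to 0.255 in AL and 0.217 to 0.373 in CR.

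**Figure D3:**
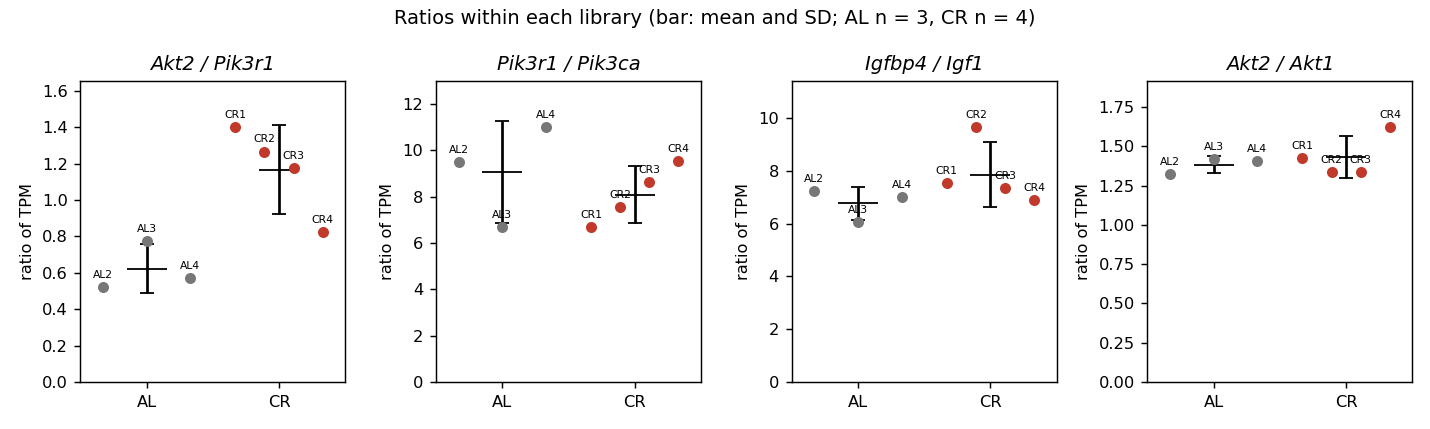
Ratios of TPM within each library (Akt2 to Pik3r1, Pik3r1 to Pik3ca, Igfbp4 to Igf1 and Akt2 to Akt1), by diet with mean and SD and axes that start at 0. Akt2 to Pik3r1 is higher in every CR library than in any AL library, and the other ratios overlap.

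Beyond the 7 genes, 13 role lists held 149 further pathway genes, of which 83 had a row and 75 were tested with limma on log2(TPM + 1). Genes left out above for an FDR below 0.05 have no row, so the counts below cover only part of the pathway. On the deposited scale 12 of the 75 (16.0%) fell in CR and 0 rose at an adjusted p under 0.05 (Benjamini-Hochberg over all tested genes), where 17.6% of all tested genes fell and 0.546% rose (18.2% together). Their median log2 change was -0.12 against -0.20 over all genes. With no adjustment of p, 22 of the 75 were lower and 0 higher, against 33.2% and 2.07% of all tested genes (35.3% together). The 12 became 4 without AL3, CR1 or CR2, 6 without CR3 and 7 without CR4, and 4 with no filter on low values. After rescaling limma called 0 of the 75. An unadjusted p under 0.05 was then reached by 24 with a higher and 3 with a lower level in CR, against 15.8% and 13.2% of all tested genes (29% in all). On that scale 0.0506% of all tested genes were called higher and 0% lower. The split therefore depends on the scale, with 19 of 75 changes above 0 as deposited and 46 of 75 after rescaling.

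**Figure D4:**
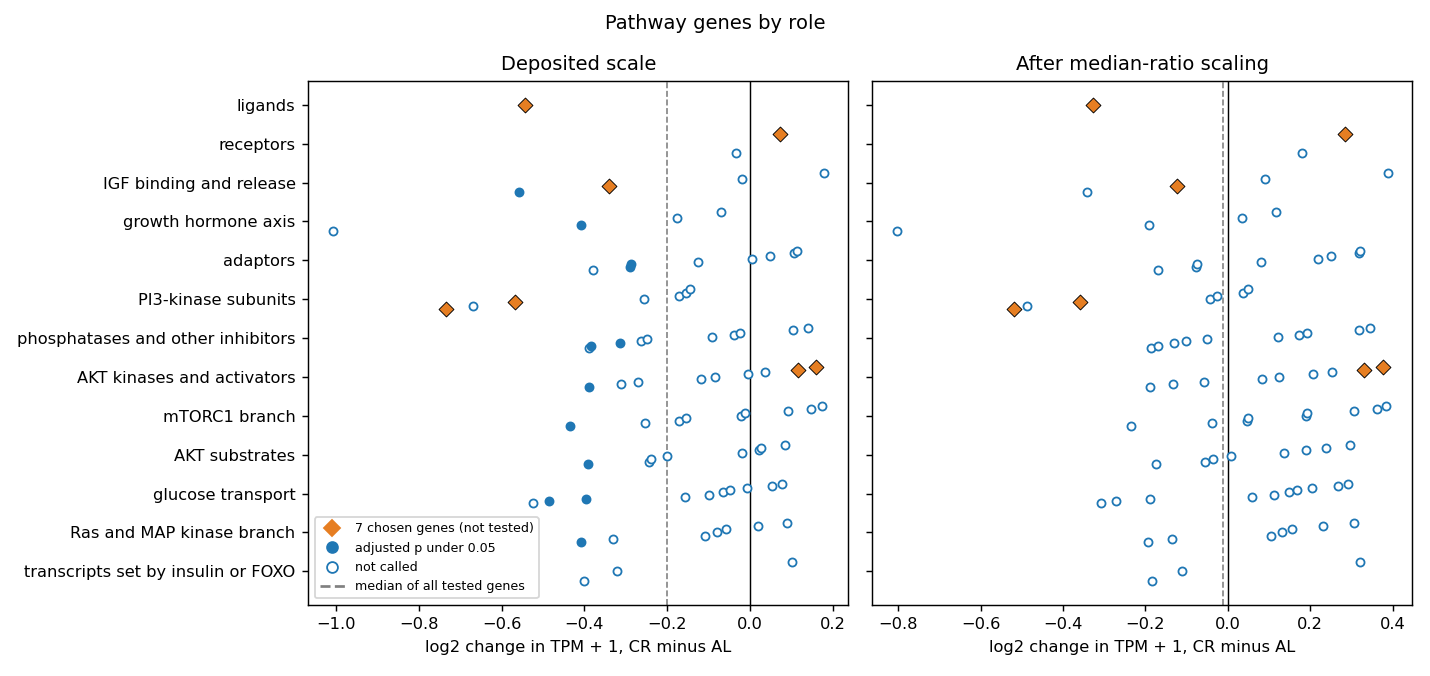
Log2 change in TPM + 1, CR minus AL, of each tested pathway gene by role on the deposited scale (left) and after rescaling (right). Diamonds mark the 7 chosen genes and the dashed line the median of all tested genes. Filled circles mark further genes called on the scale of that panel (12 as deposited, 0 after rescaling), and open circles those not called.

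Upstream of the receptor, the pancreatic hormone genes Ins1 and Ins2 were listed at 0 in every library and Igf2 stood at a mean of 0.571 TPM in AL and 0.346 in CR, so that Igf1 was the 1 ligand above the filter on low values. Igf2r, which clears IGF-2 and sorts lysosomal enzymes, stood at 46.3 ± 4.48 TPM under AL and 45.2 ± 3.15 TPM under CR. Its change was -0.03 ± 0.09 as deposited (limma adjusted p = 0.813) and 0.18 ± 0.08 after rescaling (limma adjusted p = 0.162). The IGF-1 receptor gene Igf1r was not analysed here.

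Among genes of IGF binding and release, 1 of 3 tested fell. It was Htra1, a secreted serine protease that cleaves matrix proteins and IGF-binding proteins. Htra1 stood at 238, 267 and 276 TPM in AL2, AL3 and AL4 and at 184, 162, 184 and 175 TPM in CR1 to CR4. The diets lay far apart, with means of 260 ± 19.97 TPM and 176 ± 10.2 TPM and a log2 change of -0.56 ± 0.07 (limma adjusted p = 0.0132). The change was -0.34 ± 0.07 after rescaling (limma adjusted p = 0.0716), and the call on the deposited scale held without any 1 of the 7 libraries.

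Of 4 tested genes of the growth hormone axis, which drives Igf1 transcription, 1 fell. The growth hormone receptor gene Ghr went from 435 ± 71.5 TPM under AL to 325 ± 31.9 TPM under CR, a log2 change of -0.41 ± 0.12 (limma adjusted p = 0.0472). After rescaling its diets overlapped and the change was -0.19 ± 0.10 (limma adjusted p = 0.239). Its call was lost without any 1 of 6 of the libraries.

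The adaptors that couple the receptor to Ras and PI3-kinase gave 2 calls among 8 tested genes. Grb2, the bridge from phosphotyrosines to the Ras activator SOS, fell from 84.3 ± 2.21 TPM to 68.8 ± 1.19 TPM, with a log2 change of -0.29 ± 0.05 (limma adjusted p = 0.0150). Shc1, another adaptor of the Ras branch, fell from 46.0 ± 4.69 to 37.3 ± 1.25 TPM (limma adjusted p = 0.0405). Rescaled, their changes were -0.07 and -0.08, so both fell about as far as the typical gene. The insulin receptor substrate genes Irs1 and Irs2 were not analysed here.

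Of 5 further PI3-kinase subunit genes tested, 0 were called by limma, with 2 lower at an unadjusted p under 0.05 as deposited and 0 after rescaling. Pik3r2, the other main regulatory subunit gene, stood at 62.0 ± 7.90 TPM under AL and 51.5 ± 2.79 TPM under CR, a log2 change of -0.26 ± 0.09 (limma adjusted p = 0.0847) that was -0.04 ± 0.11 after rescaling. Changes of these 5 ran from -0.67 to -0.14 as deposited.

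Among 10 tested phosphatases and other inhibitors 2 fell. Inppl1, encoding the lipid phosphatase SHIP2, stood at 61.4, 65.1 and 57.9 TPM in AL2, AL3 and AL4 and at 47.0, 46.2, 47.4 and 56.7 TPM in CR1 to CR4. Every CR library lay under every AL library as deposited, with CR4 nearest to AL. The log2 change was -0.31 ± 0.09 (limma adjusted p = 0.0402), and it was -0.10 ± 0.08 after rescaling (limma adjusted p = 0.409), where the diets overlapped.

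Downstream, 1 of 9 tested genes of the mTORC1 branch fell. Tsc1, which restrains mTORC1, went from 12.4 ± 1.93 to 8.83 ± 0.524 TPM (log2 change -0.43 ± 0.12, limma adjusted p = 0.0410). Among 8 tested AKT substrates Pde3b, the phosphodiesterase through which insulin lowers cyclic AMP, fell from 247 ± 18.4 to 188 ± 16.6 TPM (limma adjusted p = 0.0211). After rescaling these changes were -0.24 and -0.17, and neither was called.

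In glucose transport 2 of 10 tested genes fell. Vamp2, a membrane fusion protein of transporter vesicles, stood at 74.2, 90.5 and 72.1 TPM in AL2, AL3 and AL4 and at 54.7, 60.9, 52.9 and 55.0 TPM in CR1 to CR4. The diets did not overlap on either scale, and the log2 change was -0.49 ± 0.09 (limma adjusted p = 0.0168) and -0.27 ± 0.08 after rescaling (limma adjusted p = 0.0879). Stxbp3, which binds syntaxin at the fusion site, fell from 22.5 ± 0.931 to 16.9 ± 1.88 TPM (limma adjusted p = 0.0315). Its rescaled change was -0.19 ± 0.10 (limma adjusted p = 0.259), and its diets overlapped there. The transporter gene Slc2a4 was not analysed here.

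The Ras and MAP kinase branch gave 1 call among 7, the kinase gene Rps6ka3. It fell from 57.5 ± 4.18 to 43.1 ± 2.54 TPM (log2 change -0.41 ± 0.08, limma adjusted p = 0.0159). Its rescaled change was -0.19 ± 0.09 (limma adjusted p = 0.177), and its diets overlapped there. Of the 12 calls on the deposited scale, those of Htra1, Grb2, Vamp2 and Rps6ka3 held there without any 1 of the 7 libraries. Of 15 transcripts known to be set by insulin or FOXO factors 3 were tested and 0 were called by limma, with 0 at an unadjusted p under 0.05 as deposited and 1 after rescaling. That gene was Cat, which encodes catalase and whose level was the highest of the 3, at 1327 ± 52.3 TPM in AL and 1430 ± 163 TPM in CR, with a rescaled change of 0.32 ± 0.09 (limma adjusted p = 0.0826).

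Likeness was measured as the root mean square difference between centred log2 profiles over the 7 libraries after rescaling. Akt1 and Akt2 were the most alike pair of the 7, at 0.09 log2 units, followed by Insr with Akt2 at 0.14 and Insr with Akt1 at 0.14. Pik3r1 was farthest from the others, at 0.26 from Pik3ca and 0.53 from Akt1. Profiles hold the diet difference that chose the genes, so this is a description.

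**Figure D5:**
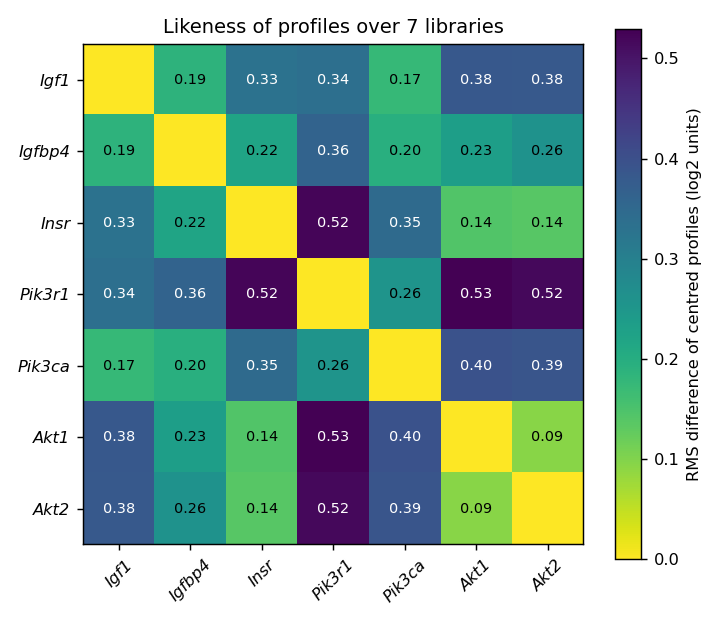
Root mean square difference in log2 units between the centred, rescaled profiles of each pair of the 7 genes over the 7 libraries. Akt1, Akt2 and Insr are near each other (0.09 to 0.14), and Pik3r1 stands 0.26 to 0.53 from the rest.

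Over all tested protein-coding genes the profiles nearest to Insr were those of Cpsf6 (0.04) and Appl2 (0.05), the latter encoding an adaptor that binds AKT and receptors in endosomes. Nearest to Akt1 were Gtf3c1 and Sec61b (0.04 each), and nearest to Akt2 were Arf1 and Plbd2 (0.03 each). Nearest to Pik3ca were Zfp112 and Cramp1l (0.05 and 0.06), to Igf1 Clcc1 and Dzip3 (0.06 and 0.07), and to Igfbp4 Poldip3 and Prr3 (0.03 and 0.04). Zfp112 and Dzip3 had low means of 1.36 and 2.65 TPM, where the 1 TPM added before taking logs understates changes. For Pik3r1 the nearest were Cyp2b10 and Siglece at 0.08 and 0.12, both with means under 3 TPM. No other of these genes lay nearer to Pik3r1 by this measure. The measure depends on the size of changes as well as their pattern, so a transcript with a like pattern but larger or smaller changes can rank far away.

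Cell type markers showed which cells could be followed beside these genes. Of 10 adipocyte markers 7 had a row, led by Cfd (adipsin). On the deposited scale 1 of the 7 fell, which was not Cfd (limma adjusted p = 0.0675), and 0 rose. Over all tested genes 17.6% fell on that scale. The summed TPM of the 7 ran from 89517 to 105460 in AL and from 70393 to 81154 in CR. After rescaling these sums were 84336 to 93842 and 73871 to 84872, which overlapped. For 4 of 7 endothelial markers, led by Cdh5, sums were 282 to 316 TPM in AL and 219 to 271 in CR. Of these 4, 1 was called lower, which was not Cdh5 (limma adjusted p = 0.0846). Rescaled, the sums overlapped, at 264 to 277 in AL and 229 to 293 in CR. The mural cell marker Rgs5 ran from 119 to 135 and from 79.7 to 108 TPM, and fell (limma adjusted p = 0.0203). Rescaled, Rgs5 overlapped as well, at 103 to 127 in AL and 83.7 to 115 in CR. Lymphocyte markers, 6 of 7 with a row and led by Cd79a, summed to 3.78 to 11.05 TPM and 1.95 to 6.65 TPM, and 0 of 3 tested were called. For macrophages, a known source of Igf1, 1 of 8 markers had a row, Itgam, at no more than 0.0537 TPM. Of 10 progenitor and fibroblast markers and 5 of skeletal muscle 0 had a row. Genes left out above for their FDR have no row, so a missing row does not show that a marker was absent or low. The 5 epithelial markers summed to 1.68 to 3.76 TPM in AL and 0.831 to 9.52 TPM in CR, and Ucp1, for thermogenic adipocytes, stood at 0.401 to 6.20 and 2.79 to 8.51 TPM. After rescaling 0 of the tested markers were called. The part of these differences in the changes of Igf1, Igfbp4 and the other genes was not tested.

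In the authors' deposited table the FDR was 0.0545 for Pik3ca, 0.0554 for Pik3r1, 0.0581 for Akt2, 0.0862 for Akt1, 0.172 for Insr, 0.172 for Igf1 and 0.658 for Igfbp4. These come from the authors' comparison, whose test is not given in the sources used here.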

How the data were processed

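RNA of subcutaneous white fat was sequenced from AL and CR mice. Per the labels' protocols, libraries were directional, and the labels name poly-A purification as well as removal of ribosomal RNA. Per the submitters' processing notes, the build was GRCm39 and the tools included edgeR 3.38.4, STAR 2.7.10b, featureCounts 2.0.3, FastQC 0.12.1 and SAMtools 1.17, whose roles are not stated. No annotation or strand setting is given in the sources used here. The authors deposited TPM for each library. They also deposited a false discovery rate, an adjusted p-value, whose smallest value here was 0.0500. Columns were assigned to diets by name, with 0 left over, and were not matched to single mice. Nothing says that libraries were pooled.

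A gene was tested if 4 or more libraries reached 1 TPM, on log2(TPM + 1) with limma 3.58.1 in R 4.3.3, with diet as the only term, a variance trend and Benjamini-Hochberg adjustment. The added 1 TPM understates changes of low genes. The same fit was run after median-ratio scaling. The design assumed 8 libraries and was applied to 7. Reads were recovered from TPM steps with GENCODE M21 exon lengths (94.6% of 22037 rows were within 0.05 reads of a whole number in all libraries) and are a measure of depth only. The procedure was tested on simulated data. These held no shift common to the libraries of a diet, so that test does not bear on the shift described above. Plots were drawn with matplotlib 3.10.9 and tables made with pandas 2.3.3 in Python 3.11.15. Promoter windows are RefSeq sequences of GRCm38.p6, matched by symbol for 6 of the 7 genes.

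Members, lists and tests were chosen with earlier results of these data known. Named genes were the 7 members, up to 2 called genes per role list or else its most abundant, the 2 nearest profiles per member and the most abundant tested marker per cell type. Alternatives were other pseudocounts, filters, scalings, no variance trend, voom on recovered reads and leaving out each library. Some genes that this rule names are not reported here.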

Additional observations from a re-analysis of the deposited data

Results flagged for a closer look

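In the 4 CR libraries 41 named genes were examined for 1 library far from the other 3, and 4 were found, where chance gives about 1 in 20 groups. In CR4 Igf2r stood at 49.9 TPM, against 43.3 to 44.0 in the other CR libraries. Inppl1 stood at 56.7 TPM in CR4, against 46.2 to 47.4. Cyp2b10, nearest in profile to Pik3r1, stood at 1.58 TPM in CR4, against 0.733 to 0.810. Cfd stood at 42836 TPM in CR3, against 37496 to 38240.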

How the results depend on the processing

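On the deposited scale the number of the 7 genes that were lower in CR was 4 under each alternative except without AL4, where it was 5 (4 to 5 over the libraries left out), and 4 under each scaled alternative. With scaled values (median-ratio, quantile or voom) the changes of Insr ran from 0.19 to 0.38, of Akt1 from 0.28 to 0.40, of Akt2 from 0.30 to 0.41, of Pik3r1 from -0.69 to -0.43, of Pik3ca from -0.43 to -0.31, of Igf1 from -0.38 to -0.23 and of Igfbp4 from -0.15 to -0.09. The 12 further pathway calls became 4 with no filter on low values and 0 with median-ratio scaling (27 at an unadjusted p under 0.05), quantile normalization (24) and voom on recovered reads (28). Leaving out 1 library gave 4 to 17 on the deposited scale and 0 to 2 after median-ratio scaling. The 1796 calls over all genes in the rows at hand became 742 with no filter, 5 with median-ratio scaling, 5 with quantile normalization and 0 with voom, which gave 3066 at an unadjusted p under 0.05. Leaving out 1 library gave 662 to 1596 and, after median-ratio scaling, 0 to 71. The change of Igf2r, -0.03 as reported, was 0.18 with median-ratio scaling, 0.13 with quantile normalization, 0.19 with voom, -0.11 to 0.022 with 1 library left out (0.022 without AL3) and 0.12 to 0.22 with median-ratio scaling and 1 library left out (0.20 without CR3, 0.14 without CR4). The change of Appl2 ran from -0.068 without AL4 to 0.21 without AL3, and that of Pik3r2 was 0.072 with median-ratio scaling without AL4. The no-filter counts come with more genes tested and the leave-out counts with fewer samples, and the cause of the other changes was not tested. The labels give no pairing of AL with CR mice, so no paired analysis was made. The columns also carry no mouse numbers of the labels. Each diet has 3 or 4 libraries, and depth limits rows with few reads more than the genes described here.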
